A study of Mus musculus and Homo sapiens with 18 samples.

Results

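RNA sequencing of *QKI* knockout (KO) human HLE-B3 cells was compared with wild-type (WT) HLE-B3 cells, across all genes and gene types. Cholesterol synthesis and proteasome genes count in the totals but are not described one by one. The 6 libraries, 3 WT and 3 KO, are 6 of the 18 RNA-seq libraries of the series, and the other libraries are from mouse lenses and mouse lens progenitor-like cells. HLE-B3 is a line of human lens epithelial cells immortalized with a viral oncogene (SV40 T antigen) and obtained from ATCC. In the KO cells *QKI* was targeted with CRISPR-Cas9 delivered by a lentivirus (plentiCRISPRv2), and infected cells were enriched by puromycin, whereas the WT cells carry no allele or agent named in the labels. Whether the KO cells are 1 clone or a mixed population is not given in the sources used here. The study states in general that its cell line work rests on independent biological replicates, but the labels do not say what separates the 3 libraries of a group, so p-values measure the spread between these libraries, which may be partly technical.

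QKI (Quaking) is an RNA-binding protein of the STAR family, which holds a KH domain and regulates splicing, stability and circularization of RNA. Its nuclear isoform QKI-5 has also been placed on chromatin, where it works with transcription factors. Lens epithelial cells form the single cell layer at the front of the lens. They divide, deposit the capsule, which is a thick basement membrane, and give rise to the fibre cells that hold the crystallins.

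The libraries held 69190864 to 81384471 counts on genes, and between 25711 and 28452 genes had at least 1 read. The normalized counts given below are reads divided by the library size after TMM scaling and set to the mean size of the 6 libraries, so they compare 1 gene between libraries and not genes with each other. Libraries of a group had a correlation of 0.979 to 0.982 across the genes tested (log2 scale) and libraries of different groups 0.959 to 0.963. Of the 19049 genes tested, 3229 (17.0%) were higher and 3112 (16.3%) were lower in KO cells (edgeR's quasi-likelihood test, adjusted p under 0.05). At least 2-fold changes were fewer and more often downward, with 490 higher (2.57%) and 841 lower (4.41%). Of the 6341 genes past the test, 3790 changed by less than 1.5-fold. The WT and KO values did not overlap for 8494 (44.6%) of all genes tested and for 53.4% of the protein-coding genes. Among the 13490 protein-coding genes, 22.4% were higher and 20.3% lower. These shares are the background for the gene lists below, whose members nearly all code for protein. The lists of named long noncoding RNAs and of microRNA host genes are exceptions and are set beside the other gene types.

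*QKI* itself had normalized counts of 19408, 19325 and 18936 in the WT and 7384, 7758 and 7565 in the KO libraries (log2 fold change −1.34 ± 0.05 SE, adjusted p = 1.85e-11). The groups did not overlap, and each KO library kept a large part of the reads. Gene counts do not show how much QKI protein was left. The study probed WT and *QKI* KO HLE-B3 cells for QKI-5 protein by immunoblot, which was not re-examined here. *QKI* was lower past the test under every alternative setting tried. Of the related STAR proteins, *SF1*, a branch point binding factor, was slightly lower (log2 fold change −0.19 ± 0.06 SE, adjusted p = 0.017 in edgeR), but not past the test without WT 2, KO 1 or KO 3 (adjusted p = 0.0892, 0.0849 and 0.107). *KHDRBS1* (Sam68) had a log2 fold change of −0.04 ± 0.06 and did not pass the test, and *KHDRBS2* and *KHDRBS3* had at most 2.13 normalized counts in any library.

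The label of the cells was checked against lens markers. *PAX6*, the transcription factor that specifies the eye, had 11454, 10866 and 10120.2 normalized counts in the WT and 9889.6, 9331 and 10167 in the KO libraries, with overlapping groups (log2 fold change −0.14 ± 0.06, adjusted p = 0.0911, and adjusted p = 0.0143 on total counts alone). *CRYAB* (αB-crystallin), *CDH2* (N-cadherin) and *VIM* (vimentin), which lens epithelium carries, had at least 33564 normalized counts in every library. *FOXE3*, a transcription factor that defines lens epithelium, had at most 10.1 normalized counts in any library. The fibre markers *CRYAA*, *MIP*, *BFSP2* and *LIM2* were at or near 0, with at most 8.08 normalized counts, and *CRYGS* had 130 to 236. The marker set also held *PROX1* for epithelium and *BFSP1* for fibres, whose values are not given here, so the check covers part of the set. Summed over the lists of markers of other cell types, endothelial markers reached 611 to 692 normalized counts in the WT and 589.8 to 635 in the KO libraries, melanocyte and pigment epithelium markers 799.6 to 971 and 892 to 947, and pluripotency markers 146 to 233 and 177 to 223. Among these lists the groups did not overlap for leukocyte markers, at 304 to 414 in the WT and 213 to 248 in the KO libraries, and for neuronal and synaptic genes, at 26442 to 28997 and 47289 to 53000.4, of which *UCHL1* alone took 10847 to 12729.8 and 34472 to 41450.2. Myelin and oligodendrocyte genes summed to 19317 to 20981 and 18929 to 21076, with overlapping groups. Groups without overlap were common, at 44.6% of all single genes tested. The part of cells of other types in the results was not tested.

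**Figure D1:**
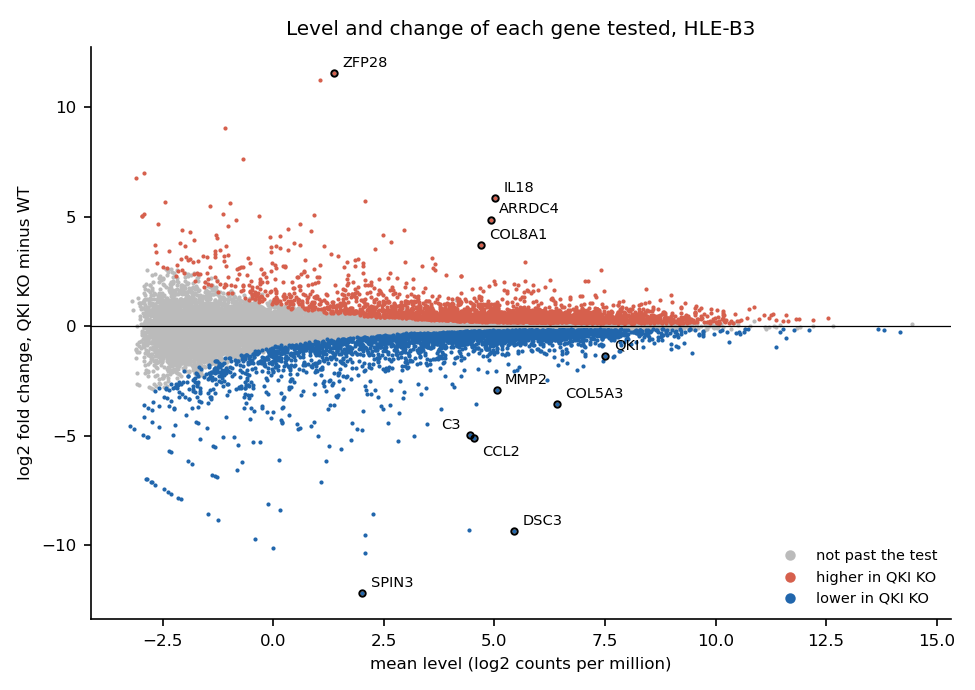
Each point is 1 gene tested, with its mean level over the 6 libraries (log2 CPM) on the x axis and its log2 fold change, QKI KO minus WT, on the y axis. Colours mark genes past the test in each direction, and the named genes reach from −12.20 for SPIN3 to 11.57 for ZFP28, while QKI lies at −1.34.

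The largest changes were near-complete switches of single genes. With the rule of at most 3 reads in every library of 1 group and a mean of at least 100 normalized counts in the other, which was set after values were seen, 8 genes were off in KO cells and 2 were on. *SPIN3*, a member of the spindlin family of histone readers, had 541, 579.6 and 647 normalized counts in the WT libraries and 0 reads in each KO library, at least 191-fold lower against a floor of 3 reads per library. *ZFP28*, a KRAB zinc finger gene, had 0 reads in each WT library and 324, 422 and 395 normalized counts in the KO libraries, at least 129-fold higher. That the groups do not overlap for these genes follows from the rule that picked them. *NCAM2*, a neural cell adhesion molecule, was likewise at 0 reads in the WT libraries and at 270.4, 363 and 276 in the KO libraries, at least 103-fold higher. *MSX2*, a homeobox gene of ectodermal tissues, had 660.2, 530.2 and 644 in the WT libraries and 1 read in all KO libraries together, a ratio of 1794 with a 95% counting interval of 322 to 70905. *WNK3*, a kinase that regulates ion transport, had 645, 583 and 598 in the WT libraries and 2 reads in all KO libraries, a ratio of 893 (247 to 7378).

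The other genes off in KO cells were *CPNE8*, a copine, *RPS6KA6* (RSK4), *CRTAC1*, *NRN1* (neuritin) and *BEX1*. Their WT means ran from 104 normalized counts for *CRTAC1* to 698 for *CPNE8*, and *RPS6KA6* and *CRTAC1* had 0 reads in every KO library, at least 45.6-fold and at least 34.0-fold lower. Of the 8 genes that were off, 4 (*SPIN3*, *WNK3*, *RPS6KA6* and *BEX1*) lie on the X chromosome, which held 2.80% of the genes tested. Their neighbours changed by far less, since the median log2 fold change of the 50 genes nearest to each of the 10 switched genes lay between −0.35 and 0.36.

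The 250 bases before the annotated start of 3 of the 10 switched genes are shown as examples. The 3 were picked by hand among large changes, and *SPIN3* and *ZFP28*, which changed most, are not shown. The sequences were read from GRCh37 in the direction of transcription, and capitals mark each CG dinucleotide. The start is the outermost one that GENCODE gives, which need not be the one used in these cells.
NCAM2, chr21:22370477-22370726, plus strand: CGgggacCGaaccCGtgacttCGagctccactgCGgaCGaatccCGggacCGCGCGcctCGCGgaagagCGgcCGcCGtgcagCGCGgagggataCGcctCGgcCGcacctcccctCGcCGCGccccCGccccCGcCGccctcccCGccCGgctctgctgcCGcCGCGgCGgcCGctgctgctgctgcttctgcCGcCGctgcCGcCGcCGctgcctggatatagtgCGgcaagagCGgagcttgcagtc
MSX2, chr5:174151335-174151584, plus strand: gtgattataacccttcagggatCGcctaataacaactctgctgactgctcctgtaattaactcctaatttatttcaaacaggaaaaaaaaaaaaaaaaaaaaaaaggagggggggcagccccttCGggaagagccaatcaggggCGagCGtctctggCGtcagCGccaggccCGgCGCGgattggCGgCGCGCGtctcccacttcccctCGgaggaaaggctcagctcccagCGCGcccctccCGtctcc
WNK3, chrX:54385076-54385325, minus strand: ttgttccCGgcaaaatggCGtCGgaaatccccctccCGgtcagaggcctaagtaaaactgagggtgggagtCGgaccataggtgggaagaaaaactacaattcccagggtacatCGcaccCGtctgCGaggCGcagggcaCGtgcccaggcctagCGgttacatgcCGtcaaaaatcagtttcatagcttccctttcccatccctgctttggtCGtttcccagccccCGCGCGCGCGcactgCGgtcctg
The window of *NCAM2* held 40 CG dinucleotides, more than in 97.3% of the windows of the 13430 protein-coding genes tested with a window, whose median was 17. The window of *MSX2* held 17 and that of *WNK3* 19. Across the 10 switched genes the number ran from 1 for *RPS6KA6* to 40, with 6 above that median. In the windows not shown it ran from 1 to 38 for *ZFP28*. The letters CG were present in 98.3% of all windows.

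**Figure D2:**
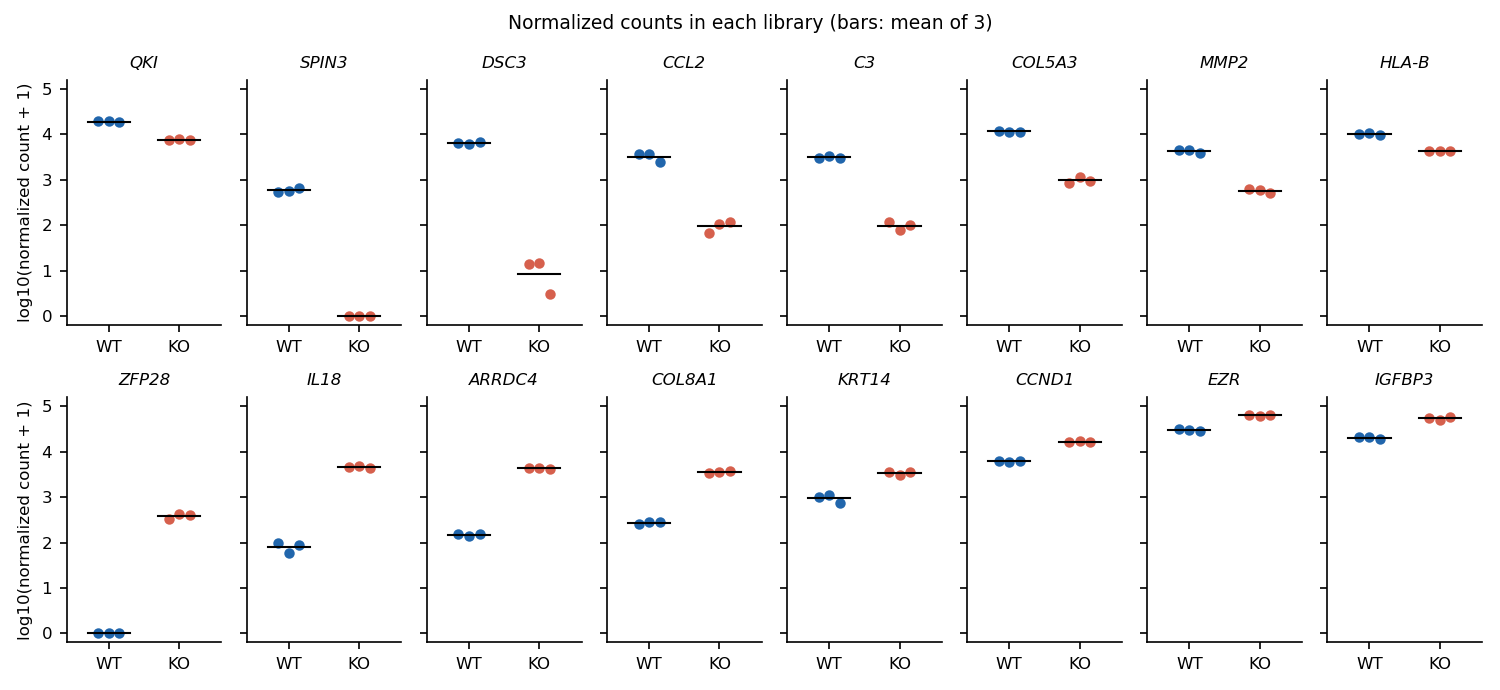
Each panel gives 1 gene, with log10 of the normalized count plus 1 on the y axis for the 3 WT and the 3 QKI KO libraries (points) and the mean of the 3 log values (bar). In each panel the groups do not overlap, and SPIN3 in KO and ZFP28 in WT libraries sit at 0. Most of these genes were picked for the size or test of their change, so this separation follows from the choice.

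Among protein-coding genes with at least 5 CPM in the higher group, the largest falls after *SPIN3*, *MSX2* and *WNK3* were in a pair of desmosomal cadherins. *DSC3* had 6373, 6052 and 6701 normalized counts in the WT and 13.1, 13.9 and 2.01 in the KO libraries, and *DSC2* had 3244, 2965 and 3243 and 5.03, 3.20 and 6.03 (log2 fold change −9.33 ± 0.16 SE, adjusted p = 1.4e-15). The desmocollins *DSC2* and *DSC3* are neighbours on chromosome 18, where the median of the 50 nearest genes was −0.51, far less than their own change. *DSG2*, a desmoglein of the same gene cluster, was lower by much less, at 9864, 10236 and 10310.1 against 5619, 5732 and 5302 (−0.87 ± 0.06). The other genes with the largest falls were *CPNE8*, *MGP* (matrix Gla protein, an inhibitor of calcification), *RASEF*, *ZKSCAN7*, the chemokine *CCL2*, *POU4F2* (a transcription factor of retinal ganglion cells) and the complement protein *C3*. They fell by 4.99 to 8.57 on the log2 scale.

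In the same class of protein-coding genes with at least 5 CPM in the higher group, which leaves out *NCAM2*, the largest rises after *ZFP28* were in *IL18*, *SBSPON*, *ARRDC4*, *GCNT2*, *ZNF429*, *COL8A1*, *KRT34*, *DNAH11*, *SEMA3E*, *FLG* and *ARFGEF3*, by 2.95 to 5.86 on the log2 scale. *IL18*, a cytokine of the interleukin-1 family, had 94.7, 58.6 and 86.2 normalized counts in the WT and 4643, 4949 and 4387 in the KO libraries (log2 fold change 5.86 ± 0.13 SE, adjusted p = 1.13e-14). *ARRDC4*, an α-arrestin that restrains glucose uptake, had 152, 136 and 155 and 4346, 4306 and 4267 (log2 fold change 4.86 ± 0.09 SE, adjusted p = 2.16e-15). *FLG* (filaggrin) and *KRT34* belong to epidermis and hair, and *DNAH11* codes for a dynein of cilia.

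Of the genes changed at least 2-fold, the most counted among those that rose were *EZR* (ezrin, a link from the membrane to actin), *IGFBP3*, *SEPT11*, *LMO7* and *UCHL1*. *EZR* rose from 31439, 30259 and 28726 in the WT to 63390.4, 60324 and 65462 in the KO libraries (log2 fold change 1.06 ± 0.05 SE, adjusted p = 2.17e-10). The most counted that fell were *INHBA*, a subunit of activins, *TIMP3*, *ITGA5*, *COL3A1* and *NREP*. *INHBA* fell from 75361, 69933 and 73192 to 30389.5, 33064 and 30884 (log2 fold change −1.21 ± 0.05 SE, adjusted p = 4.45e-11).

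The extracellular matrix changed in both directions, with more falls than rises among its collagens. Of 27 collagen genes tested, 5 were higher and 15 lower, with a median log2 fold change of −0.34 against −0.02 for all genes tested. *COL5A3*, a chain of collagen V, had 12026, 11532 and 11357 normalized counts in the WT and 866, 1135 and 929 in the KO libraries (log2 fold change −3.58 ± 0.09 SE, adjusted p = 5.08e-14). The collagen VI genes *COL6A1* and *COL6A2*, which lie side by side on chromosome 21, fell by 1.59 and 1.84 on the log2 scale, while the median of their neighbours was −0.08. *COL3A1* (−1.15 ± 0.06) and *COL1A1* (−0.94 ± 0.06) were lower as well, whereas *COL1A2*, the partner chain of *COL1A1* in collagen I, had −0.09 ± 0.05 and did not pass the test except on total counts alone (adjusted p = 0.0416). *COL4A1*, a chain of the basement membrane collagen of the lens capsule, was lower by less (−0.28 ± 0.04), in a stretch of chromosome 13 whose 50 nearest genes had a median of −0.48. Rises were seen in *COL8A1* (254, 278 and 284 in the WT and 3367, 3585 and 3669.7 in the KO libraries, log2 fold change 3.70 ± 0.09) and *COL11A1* (1.78 ± 0.06), and at low levels in *COL13A1* (1.74 ± 0.31) and *COL21A1* (3.0 ± 0.63).

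Of 34 matrix glycoproteins and proteoglycans tested, 10 were higher and 13 lower. *TNC* (tenascin C) fell from 21417, 21926 and 22234 in the WT to 8146, 8891 and 7434 in the KO libraries (log2 fold change −1.42 ± 0.06 SE, adjusted p = 7.75e-11), and *NID2* (nidogen 2), *SPOCK1* and *FBLN2* (fibulin 2) fell by 2.80, 1.08 and 1.13 on the log2 scale. *EFEMP1*, *HAPLN1*, *THBS1* (thrombospondin 1) and *FBLN5* rose, with log2 fold changes of 0.97, 1.69, 0.50 and 1.35. Fibronectin (*FN1*) differed little in size, at −0.26 ± 0.03, but passed the test. The matrix glycoproteins moved in both directions.

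Among 38 matrix proteases and inhibitors, 8 were higher and 17 lower (median −0.32). *MMP2* (gelatinase A) had 4499, 4511 and 3909 normalized counts in the WT and 614, 583 and 508 in the KO libraries (log2 fold change −2.92 ± 0.09 SE, adjusted p = 1.3e-12). *PLAT* (tissue plasminogen activator), *TIMP3* and *ADAMTS4* fell by 1.33, 1.03 and 2.0 on the log2 scale. In the other direction *ADAMTS1* rose (0.48 ± 0.06), and the collagenase *MMP13* rose from 48.7, 23.2 and 37 to 195, 192 and 178 (log2 fold change 2.37 ± 0.32 SE, adjusted p = 2.17e-05). Of 27 integrin and laminin genes, 7 were higher and 12 lower. The fibronectin receptor subunit *ITGA5* fell from 22925, 24218 and 21813 to 10882, 10040.1 and 10669 (log2 fold change −1.13 ± 0.06 SE, adjusted p = 3.48e-10), and the laminin receptor subunit *ITGA7* fell by 1.82 on the log2 scale. *ITGA11* and *ITGA3* rose (0.63 ± 0.05 and 0.54 ± 0.05), as did the laminin chain *LAMA4* at a low level (2.46 ± 0.34), while *LAMC1* was lower (−0.41 ± 0.05).

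Markers of epithelial and mesenchymal state moved in a mixed way. Of 31 genes of epithelial junctions and keratins, 7 were higher and 9 lower (22.6% and 29.0%, against 22.4% and 20.3% of all protein-coding genes tested). The largest falls were those of the desmocollins, the largest rise was that of the splicing regulator *ESRP1* (3.59), and keratins of simple and basal epithelia rose. *KRT14* rose from 1017, 1096 and 759 in the WT to 3533, 3106 and 3552 in the KO libraries (log2 fold change 1.83 ± 0.11 SE, adjusted p = 2.98e-09), and *KRT8*, *KRT18* and *KRT7* rose by 1.26, 0.89 and 0.78 on the log2 scale. *CDH1* (E-cadherin) had at most 26.2 normalized counts in any library. Of 23 mesenchymal markers and factors of epithelial-mesenchymal transition, 3 were higher and 11 lower (median −0.21, and −0.11 after subtraction of the median of the 50 nearest genes). *PRRX1*, a homeobox gene of mesenchyme, fell from 2443, 2316 and 2314 to 558, 647 and 538 (log2 fold change −2.02 ± 0.10 SE, adjusted p = 1.22e-10). *CDH2*, *CDH11* and *TCF4* fell by 0.75, 0.87 and 0.87, but *CDH2* and *TCF4* lie in a stretch of chromosome 18 whose nearest 50 genes had medians of −0.60 and −0.44. *AXL*, *NT5E* (CD73) and *TWIST1* rose (0.61 ± 0.05, 0.59 ± 0.08 and 0.72 ± 0.11). In the epithelial list the 9 lower became 5 without KO 3.

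Target genes of YAP and TAZ, the co-activators that answer to cell spreading and tension, mostly rose. Of 29 tested, 22 were higher and 3 lower, and their median log2 fold change was 0.46. *CTGF* (CCN2) had 35180.0, 38075 and 41939 normalized counts in the WT and 65542, 82192 and 70873 in the KO libraries (log2 fold change 0.92 ± 0.08 SE, adjusted p = 1.03e-07). *ANKRD1* rose by 0.76 ± 0.07 and *CYR61* (CCN1) by 0.53 ± 0.08, and the 4 with the smallest p were *IGFBP3* (1.43 ± 0.06), *F3* (tissue factor, 1.67 ± 0.07), *AMOTL1* (0.97 ± 0.05) and *CRIM1* (0.83 ± 0.06). The 3 that fell, *DOCK5*, *TEAD3* and *ARHGEF17*, did so by 0.18 to 0.26, and the 3 lower became 1 without WT 1, WT 2, KO 1 or KO 2. *ARHGEF17* passed the test in no fit with a library left out (adjusted p = 0.0537 to 0.219), and *TEAD3* did not without WT 1, WT 2, KO 1 or KO 2 (adjusted p = 0.0703 to 0.138). *DOCK5* lies beside genes with a median of −0.51. After subtraction of the median of the 50 nearest genes the list had a median of 0.46. Contractile genes rose more often than they fell, with 18 and 8 of 37. *TAGLN* (SM22) rose from 97348, 92051 and 89474 to 168143, 144209 and 169599 (0.79 ± 0.06) and *ACTA2* (smooth muscle actin) by 0.76 ± 0.06, whereas *CNN1* (calponin) fell from 683, 759 and 581 to 157, 153 and 182 (log2 fold change −2.04 ± 0.16 SE, adjusted p = 6.87e-08).

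Most of the genes of innate immunity that changed were lower. Of 52 interferon-stimulated genes tested, 6 were higher and 24 lower (median −0.47), and of 22 genes of antigen presentation 0 were higher and 12 lower (median −0.54, and −0.34 after subtraction of the neighbours). *BST2* (tetherin) had 408, 287 and 276 normalized counts in the WT and 25.1, 18.1 and 37.2 in the KO libraries (log2 fold change −3.58 ± 0.30 SE, adjusted p = 1.21e-07). *OAS3*, a sensor of double-stranded RNA, fell from 498, 650.3 and 564 to 119.6, 91.7 and 86.5 (log2 fold change −2.52 ± 0.19 SE, adjusted p = 3.53e-08), and the transcription factor *IRF1* fell by 1.03 on the log2 scale. Members that rose included *SAMD9*, *IFIT5*, *ADAR* and *IFITM3*, with log2 fold changes of 0.48, 0.61, 0.30 and 0.43, of which *ADAR* moved by less than its neighbours (median 0.43). The genes that fell included class I heavy chains, *B2M* and a member of the loading complex. *HLA-B* had 10074, 11034 and 9554 in the WT and 4244, 4302 and 4359 in the KO libraries (log2 fold change −1.25 ± 0.06 SE, adjusted p = 3.37e-10), *HLA-C* fell by 0.68, *B2M* by 0.94 and *TAPBP* (tapasin) by 1.13. In the antigen presentation list the 0 higher became 1 without WT 1 or KO 2. The summed leukocyte markers were also lower, at 304 to 414 normalized counts in the WT and 213 to 248 in the KO libraries, where *CSF1R* alone took 202 to 214 and 74.4 to 104. The pan-leukocyte marker *PTPRC* (CD45) was at 0 in all WT libraries and at most 16.1 in the KO libraries. The labels name a single cell line, HLE-B3, and no leukocytes, and the presence of other cells was not tested. In bulk libraries fewer cells of a type and less RNA per cell cannot be told apart. Reads of class I genes can align to more than 1 of them, so the size of each gene's change is uncertain.

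Cytokines, chemokines and their receptors showed 5 higher and 23 lower of 39 tested (median −0.53). *CCL2*, which attracts monocytes, fell from 3625, 3783 and 2468 in the WT to 68.3, 106 and 116 in the KO libraries (log2 fold change −5.09 ± 0.19 SE, adjusted p = 6.31e-12), and *CXCL8* (interleukin 8) fell from 11002, 10734 and 11995 to 3653, 3128 and 3586 (log2 fold change −1.70 ± 0.07 SE, adjusted p = 3.31e-11). *IL32* and the interleukin-1 receptor *IL1R1* fell by 1.87 and 1.47, and *IL6* by 0.81. Against this, *IL18*, *TNFRSF11B* (osteoprotegerin), *IL6ST* (gp130) and *TNFSF15* rose, with 5.86 ± 0.13, 1.23 ± 0.11, 0.51 ± 0.05 and 2.67 ± 0.50. Of 18 NF-kB subunits, inhibitors and targets, 2 were higher and 12 lower. *REL* fell from 3897, 4152 and 4332 to 1676, 1851 and 1640.3 (log2 fold change −1.26 ± 0.07 SE, adjusted p = 2.03e-09), *PTGS2* (cyclooxygenase 2) by 1.46, *NFKBIA* by 0.64 and *TNFAIP3* (A20) by 0.66, whereas the adhesion molecule *ICAM1* rose (0.65 ± 0.09). Among 27 genes of complement and coagulation, 6 were higher and 10 lower. *C3* had 2984, 3377 and 2994 and 117, 76.8 and 99.6 (log2 fold change −4.99 ± 0.13 SE, adjusted p = 8.13e-14), *SERPINA1* fell by 3.11, and *F3* and the complement regulators *CD55* and *CD59* rose. In that list the 10 lower became 6 without KO 2, and in the NF-kB list the 2 higher became 1 on total counts alone and without WT 3, KO 1 or KO 3.

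**Figure D3:**
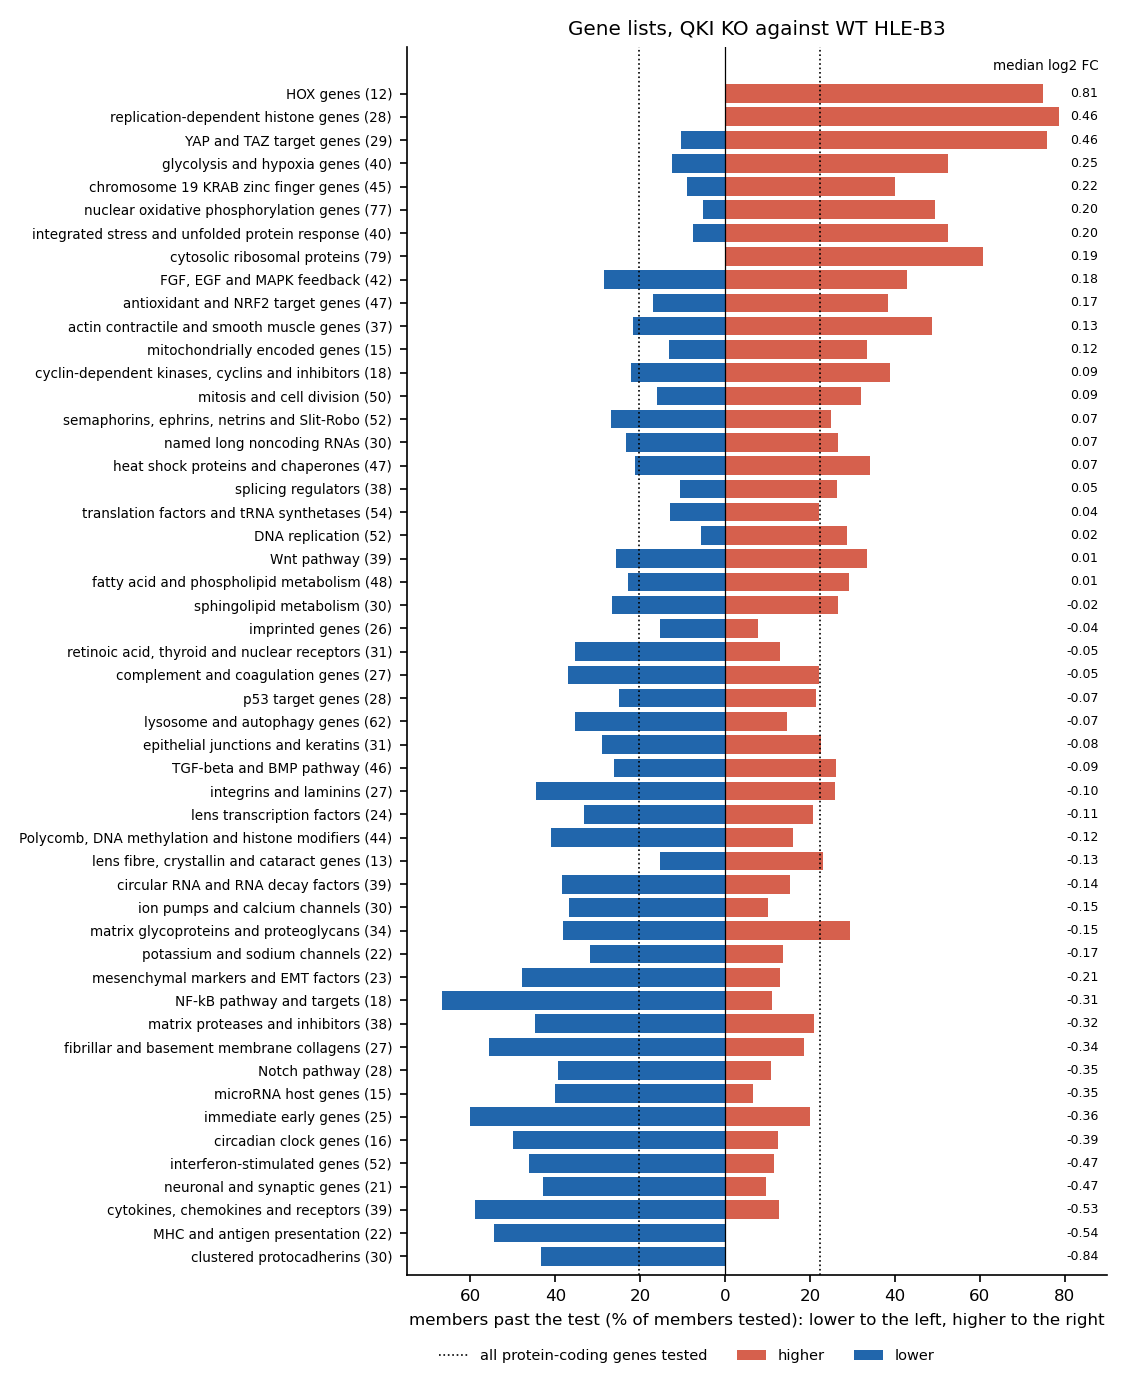
Bars give the share of members tested (number in brackets) that passed the test in each gene list with at least 12 members tested, higher in QKI KO to the right and lower to the left, ordered by median log2 fold change (printed at the right). Dotted lines mark 22.4% higher and 20.3% lower, the shares of all protein-coding genes tested, and lists run from a median of −0.84 for clustered protocadherins to 0.81 for HOX genes. These lines are not the background for named long noncoding RNAs and microRNA host genes.

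Single ligands, receptors and feedback genes of signalling pathways changed, mostly in both directions within a pathway. In the Notch pathway 3 were higher and 11 lower of 28 tested (median −0.35). The feedback gene *NRARP* fell from 704, 726 and 713 in the WT to 159, 178 and 189 in the KO libraries (log2 fold change −2.03 ± 0.15 SE, adjusted p = 2.17e-08), the target *HEYL* by 1.36, the receptor *NOTCH3* by 0.80 and the ligand *JAG1* by 0.51, while the target *HES1* had 0.03 ± 0.05 and did not pass the test. In the TGF-beta and BMP pathway 12 were higher and 12 lower of 46 (26.1% each), near the 22.4% and 20.3% of all protein-coding genes tested. The receptor *TGFBR1* rose from 10691, 9871 and 10528 to 22051, 24240.0 and 21579 (log2 fold change 1.13 ± 0.06 SE, adjusted p = 5.21e-10) and the ligand *BMP4* by 1.13 ± 0.09, whereas *INHBA*, *BMP1* and the latent TGF-beta binding protein *LTBP1* fell by 1.21, 1.11 and 1.48.

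In the Wnt pathway 13 were higher and 10 lower of 39. The inhibitor *DKK1* rose from 2163, 1725 and 2013 to 5868, 5921 and 6209 (log2 fold change 1.61 ± 0.08 SE, adjusted p = 2.09e-10), and the frizzled receptors split, with *FZD4*, *FZD6* and *FZD7* higher (1.08, 0.47 and 0.61) and *FZD3* lower (−1.67). The receptor *ROR2* fell from 542, 574 and 567 to 55.3, 32 and 27.2 (log2 fold change −3.87 ± 0.24 SE, adjusted p = 3.12e-09), and the nuclear effector *TCF7* fell by 2.30. In growth factor signalling 18 were higher and 12 lower of 42. *IGFBP4* and *FGF5* rose by 2.08 ± 0.06 and 2.10 ± 0.11, and the MAPK phosphatase *DUSP6* rose from 4558, 3945 and 4558 to 11463, 10669 and 10847 (log2 fold change 1.34 ± 0.07 SE, adjusted p = 2.66e-10), while *FGFR1* and *NRG1*, both on a stretch of chromosome 8 with neighbour medians of −0.54 and −0.49, fell by 0.82 and 0.59. Of 25 immediate early genes, 5 were higher and 15 lower (median −0.36, and −0.23 after subtraction of the neighbours). *EGR3* fell from 1879.6, 2083 and 2253 to 369, 303 and 326 (log2 fold change −2.64 ± 0.11 SE, adjusted p = 3.69e-11) and *JUNB* by 0.79, and *KLF2* and *FOSL1* rose (1.29 ± 0.09 and 0.71 ± 0.07).

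The list of retinoid genes and nuclear receptors had 4 higher and 11 lower of 31, with some large single changes. *STRA6*, the membrane receptor that takes up retinol, had 3266, 3265 and 3136 normalized counts in the WT and 286, 282 and 264 in the KO libraries (log2 fold change −3.54 ± 0.09 SE, adjusted p = 5.77e-14), and the retinoic acid carrier *CRABP2* fell by 1.35. *ALDH1A1* and *ALDH1A2*, enzymes that make retinoic acid, rose from low levels, 18, 1.01 and 16.4 to 156, 81.1 and 144 and 17.1, 40.4 and 10.3 to 139.7, 139.7 and 173 (log2 fold change 2.73 ± 0.43 SE, adjusted p = 0.000104). The repressors *NR1D1* and *NR1D2* (REV-ERB), which also belong to the circadian clock, fell by 0.92 and 0.53. Of 16 clock genes, 2 were higher and 8 lower, and *NPAS2* fell from 761, 901 and 1045 to 166, 111 and 197 (log2 fold change −2.51 ± 0.19 SE, adjusted p = 4.25e-08). In that list the 2 higher became 1 on total counts alone and without WT 2, WT 3 or KO 3.

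Genes of the lens itself changed one by one. Of 24 lens transcription factors tested, 5 were higher and 8 lower. *MEIS1* and *MEIS2* fell by 0.44 and 0.43, and *MAF*, a regulator of crystallin genes, fell from 108, 187 and 169 to 23.1, 0 and 0 (log2 fold change −4.29 ± 0.79 SE, adjusted p = 0.000442) but did not pass in DESeq2 (adjusted p = 0.123). In that list the 8 lower became 5 in the blocked fit, in DESeq2 and without WT 1, WT 3 or KO 2 and 4 without WT 2. Of 37 genes of lens fibres, crystallins and cataract, 13 had enough reads to be tested. Of these, 3 were higher and 2 lower (23.1% and 15.4%), near the 22.4% and 20.3% of all protein-coding genes tested. *CRYAB*, the small heat shock protein αB-crystallin, rose from 41969.6, 40571 and 35309 to 73469, 64349 and 74790.5 (log2 fold change 0.85 ± 0.07 SE, adjusted p = 7.69e-08). It lies on chromosome 11 in a stretch whose 50 nearest genes had a median of 0.61. The gap junction gene *GJA1* rose (0.53 ± 0.07) and *GJA3* fell from 326, 315 and 331 to 116, 103 and 87.5 (log2 fold change −1.66 ± 0.21 SE, adjusted p = 9.49e-06). Among fibre and cataract genes the 2 lower became 4 on total counts alone and 1 without WT 1, WT 2, KO 1, KO 2 or chromosomes 13 and 18.

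Proliferation genes moved by small amounts. Of 52 genes of DNA replication, 15 were higher and 3 lower, and of 50 genes of mitosis 16 were higher and 8 lower, with medians of 0.02 and 0.09, or of 0.07 and 0.14 after subtraction of the neighbours. *CCND1* (cyclin D1) rose from 6218, 6028 and 6206 in the WT to 16759, 16855 and 16642 in the KO libraries (log2 fold change 1.45 ± 0.05 SE, adjusted p = 8.66e-12), and the inhibitor *CDKN1A* (p21) fell from 6232, 6149.8 and 6049 to 3661, 3164 and 3698 (log2 fold change −0.81 ± 0.07 SE, adjusted p = 1.66e-07). The retinoblastoma family members *RB1*, *RBL1* and *RBL2* fell by 0.58, 0.42 and 0.39, and *RB1* lies in the lowered stretch of chromosome 13 (neighbour median −0.33). The p53 targets as a list were split, with 6 higher and 7 lower of 28. Among mitosis genes the 8 lower became 5 without WT 2 or KO 1, among p53 targets the 7 lower became 4 without WT 1 or KO 3, and among DNA replication genes the 3 lower became 8 on total counts alone and 5 without KO 2.

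Many short housekeeping genes were higher, and gene length itself went with the group. When protein-coding genes were cut into 8 groups by merged exon length, the median log2 fold change went from 0.18 in the shortest (207 to 2401 bases) to −0.11 in the longest (11113 bases or more). Relative to the WT mean, the shortest group had medians of 0.20, 0.14 and 0.24 in the KO libraries and of 0.040, 0.028 and −0.058 in the WT libraries, so the slope also differed between libraries of a group. The part of this slope in the results on short genes was not tested, and medians are also given after each length group's median was subtracted. Of 79 cytosolic ribosomal protein genes, 48 were higher and 0 lower (median 0.19, and 0.17 after that subtraction). Merged exon length adds up every annotated exon of a gene and can exceed the length of the RNA present. By this measure the ribosomal list had a median of 3228 bases, and *RPL23* had 5905. Most of these genes thus fell outside the shortest group, and the subtraction removed little. *RPL23* and *RPS27* rose by 0.64 ± 0.06 and 0.65 ± 0.08. In that list the 0 lower became 2 without WT 3. Of 77 nuclear genes of oxidative phosphorylation, 38 were higher and 4 lower, and their median went from 0.20 to 0.09 with it, and the 4 lower became 1 without WT 1, WT 2 or KO 1 and 2 without KO 3 or chromosomes 13 and 18. Of 28 replication-dependent histone genes, 22 were higher and 0 lower, with medians of 0.46 before and 0.29 after it. *HIST1H1E* rose from 18549, 17487 and 17659 to 31602, 27385 and 32433 (log2 fold change 0.77 ± 0.06 SE, adjusted p = 1.06e-07). Histone genes are near-identical copies, most of which (22 of the list) lie in a stretch of raised genes, mainly on chromosome 6. The median was 0.19 after subtraction of their neighbours, which can include other histone genes.

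**Figure D4:**
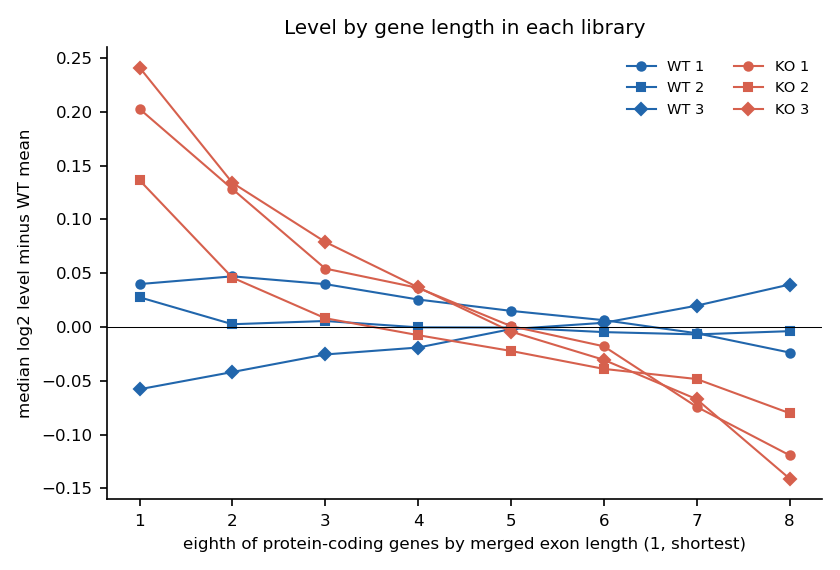
Protein-coding genes tested were cut into 8 equal groups by merged exon length (x axis, 1 is the shortest), and the y axis gives the median log2 level of each group minus the WT mean, with a line for each library. The KO libraries fall from 0.14 to 0.24 in the shortest group to −0.08 to −0.14 in the longest, and WT 3 slopes the other way.

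Metabolic and stress genes rose more often than they fell. Of 40 genes of glycolysis and hypoxia, 21 were higher and 5 lower (median 0.25, and 0.20 after the subtraction for length). The hypoxia-inducible factor *EPAS1* (HIF-2α) rose from 6437, 7044 and 6361 to 16751, 16521 and 16467 (log2 fold change 1.33 ± 0.06 SE, adjusted p = 5.54e-11), hexokinase 2 (*HK2*) from 4627, 4231 and 4893 to 10215, 11368 and 10754 (log2 fold change 1.23 ± 0.07 SE, adjusted p = 7.14e-10), and adrenomedullin (*ADM*) and the glucose transporter *SLC2A1* rose by 1.49 ± 0.09 and 0.76 ± 0.07. Of 40 genes of the integrated stress and unfolded protein responses, 21 were higher and 3 lower (median 0.20). *CTH*, an enzyme that makes cysteine, rose by 1.22 ± 0.08 and the chaperone *HYOU1* by 0.51 ± 0.05, while *ATF3* and the sensor *ERN1* (IRE1) fell by 0.39 and 0.55. Of 47 antioxidant genes, 18 were higher and 8 lower. *TXNRD1* and *GCLC*, which keep thioredoxin and glutathione reduced or supplied, rose by 0.69 ± 0.05 and 0.72 ± 0.07, although *NFE2L2* (NRF2) was lower (−0.26 ± 0.06). Lysosome and autophagy genes went the other way, with 9 higher and 22 lower of 62, and the autophagy receptor *SQSTM1* (p62) fell from 39746, 41370.2 and 37411 to 26672, 24291 and 26453 (log2 fold change −0.61 ± 0.06 SE, adjusted p = 3.53e-07). Of 47 chaperones, 16 were higher and 10 lower. *HSP90AB1* rose by 0.35 ± 0.04, *HSPA2* and *BAG3* fell by 1.69 and 0.44, and *CHORDC1* rose by 0.84 ± 0.06 beside neighbours with a median of 0.72. In the antioxidant list the 8 lower became 5 without KO 3.

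RNA-binding proteins were checked because QKI regulates splicing. Of 38 splicing regulators, 10 were higher and 4 lower (median 0.05). *ESRP1*, an epithelial splicing regulator, rose from 19.8, 8.08 and 8.21 in the WT to 159.8, 139 and 146 in the KO libraries (log2 fold change 3.59 ± 0.42 SE, adjusted p = 4.58e-06), and *RBM24*, a regulator of muscle and lens RNA, from 2552, 2477 and 2627 to 4637, 4559.8 and 4612 (log2 fold change 0.85 ± 0.06 SE, adjusted p = 3.16e-08). The muscleblind proteins differed in direction. *MBNL1* rose (0.44 ± 0.05), *MBNL2* fell (−0.29 ± 0.06) on chromosome 13 beside neighbours with a median of −0.45, and *MBNL3* had 29.8, 23.2 and 12.3 in the WT libraries and 0 reads in the KO libraries, at least 7.07-fold lower. Of 39 factors of circular RNA and RNA decay, 6 were higher and 15 lower. *ADARB1*, an RNA editing enzyme, rose from 1499, 1502 and 1735 to 3392, 3521 and 3169 (log2 fold change 1.09 ± 0.08 SE, adjusted p = 2.67e-08) and *DROSHA* by 0.52 ± 0.05, while the decapping enzyme *DCP2* fell from 7138, 6987 and 6932 to 4128, 4029.7 and 4179 (log2 fold change −0.77 ± 0.06 SE, adjusted p = 3.81e-08). Of 44 chromatin modifiers, 7 were higher and 18 lower, and the demethylase *KDM6B* fell from 7592, 9199 and 9327 to 3136, 3396 and 3331 (log2 fold change −1.40 ± 0.08 SE, adjusted p = 8.24e-10).

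Outside the protein-coding genes, changes were fewer. Of 5559 genes of other types, 208 (3.74%) were higher and 370 (6.66%) lower, with a median log2 fold change of −0.12. Long intergenic RNAs (lincRNA) had 58 higher and 87 lower of 1136, and antisense RNAs 60 and 71 of 1356. Sense intronic RNAs, which lie within introns of other genes, had a median of −0.40, with 5 higher and 38 lower of 400. Most of these genes have few reads. Compared at levels no higher than those of the 3373 least expressed protein-coding genes, protein-coding genes themselves had 261 higher and 508 lower with a median of −0.17, lincRNAs had a median of −0.10, antisense RNAs one of −0.05 and sense intronic RNAs one of −0.41. Transcribed unprocessed pseudogenes had 17 higher and 37 lower of 251, and processed pseudogenes, which can share reads with their parent genes, 21 and 26 of 994 with a median of −0.01. Libraries that were left out moved some of these counts by over 1.5 times. For lincRNA the 87 lower became 52 without WT 3, for antisense RNAs the 71 lower became 46 without WT 3 and 43 without KO 1, for sense intronic RNAs the 5 higher became 1 on total counts alone and without WT 2 or KO 2, 2 without WT 1 or KO 3 and 3 without KO 1, and the 38 lower became 25 without WT 2, 22 without WT 3 and 21 without KO 1 or KO 3, for transcribed unprocessed pseudogenes the 17 higher became 11 without WT 2 or KO 1, and for processed pseudogenes the 21 higher became 11 without KO 3, and the 26 lower became 15 without WT 3 or KO 3 and 40 without KO 2.

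Single noncoding RNAs changed by large factors. The lincRNA *LINC02086* rose from 951, 992 and 959 in the WT to 3167, 2829.7 and 2949 in the KO libraries (log2 fold change 1.62 ± 0.08 SE, adjusted p = 1.86e-10) and *LINC01133* from 9.92, 18.2 and 19.5 to 234, 212 and 171 (log2 fold change 3.70 ± 0.35 SE, adjusted p = 4.67e-07). *NEAT1*, the RNA that builds paraspeckles, fell from 49149, 54279 and 56318 to 24804, 33622 and 25821 (log2 fold change −0.92 ± 0.09 SE, adjusted p = 6.46e-07). Of 30 long noncoding RNAs listed by name, 8 were higher and 7 lower (26.7% and 23.3%). Over all genes tested outside the protein-coding ones the shares were 3.74% and 6.66%, and levels were not matched. The listed RNAs that rose included the small RNA hosts *GAS5* (0.74 ± 0.08), *SNHG8* (1.52 ± 0.16) and *DANCR* (1.14 ± 0.13). The antisense RNA *MSC-AS1* fell from 3443, 3241 and 3269 to 1484, 1349 and 1305 (log2 fold change −1.27 ± 0.08 SE, adjusted p = 2.53e-09) and *MBNL1-AS1* rose by 1.46 ± 0.16, in the direction of *MBNL1*. The libraries keep strand, but the strand setting used in counting is not given in the sources used here, so reads of an antisense RNA may include reads of its partner. The pseudogene *TSSC2* rose from 0.902, 13.1 and 10.3 to 273, 261 and 271 (log2 fold change 5.06 ± 0.45 SE, adjusted p = 2.66e-07). Host genes of microRNAs had 1 higher and 6 lower of 15, with *MIR22HG* higher (0.78 ± 0.13) and *MIR3142HG* lower (−3.05 ± 0.39). In that list the 1 higher became 2 in the blocked fit and without WT 2 or WT 3, and the 6 lower became 3 without KO 1.

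Changes ran together along the chromosomes. In windows of 50 neighbouring genes tested, the median log2 fold change ranged from −0.81 to 0.79, and 31 runs of windows reached 0.3 in either direction (15 higher, 16 lower), a limit chosen after values were seen. These runs held 4241 genes, 22.3% of those tested. Outside them 2153 genes (14.5%) were higher and 2248 (15.2%) lower, and inside them 25.4% and 20.4%. Over all genes tested the shares were 17.0% and 16.3%. The longest raised run lay on chromosome 4 (GRCh37 chr4:25649633-151178590), where 176 of 447 genes were higher and 28 lower. A raised run on chromosome 11 (chr11:77371054-120360646) held 117 higher and 16 lower of 238 genes. Its start overlaps a lowered run (chr11:73587744-82782965, 21 of 68 genes lower and 8 higher), since each run takes in the whole windows at its ends. The raised run included *IL18*, *MMP13*, *FAT3*, *EXPH5* and *CRYAB*. Against their neighbours, *IL18* (5.86 beside a neighbour median of 0.61) and *FAT3* (2.22 beside 0.73) stood out by much more than the run, whereas *NCAM1* in the same run fell from 94.7, 169 and 199 to 0, 12.8 and 22.1.

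The lowered runs included chromosome 8 (chr8:163186-57014826, 133 of 276 genes lower and 14 higher), chromosome 18 (chr18:12407895-78005397, 112 of 233 lower and 6 higher) and chromosome 13 (chr13:44453420-115103101, 89 of 219 lower and 16 higher). In the chromosome 8 run *EGR3*, *HOOK3* (a dynein adaptor) and *PLAT* fell by 2.64, 1.99 and 1.33 beside neighbour medians of −0.60, −0.58 and −0.58. In the chromosome 18 run, *GREB1L* rose from 178, 297 and 234 to 912, 944 and 947 against the direction of its neighbours. In the chromosome 8 run the medians of the KO libraries were −0.47, −0.42 and −0.45 relative to the WT mean, and in the chromosome 11 run 0.46, 0.45 and 0.41, while the WT libraries lay between −0.04 and 0.03 in both. The runs were picked by their KO minus WT medians, so the direction of these values follows from the choice.

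**Figure D5:**
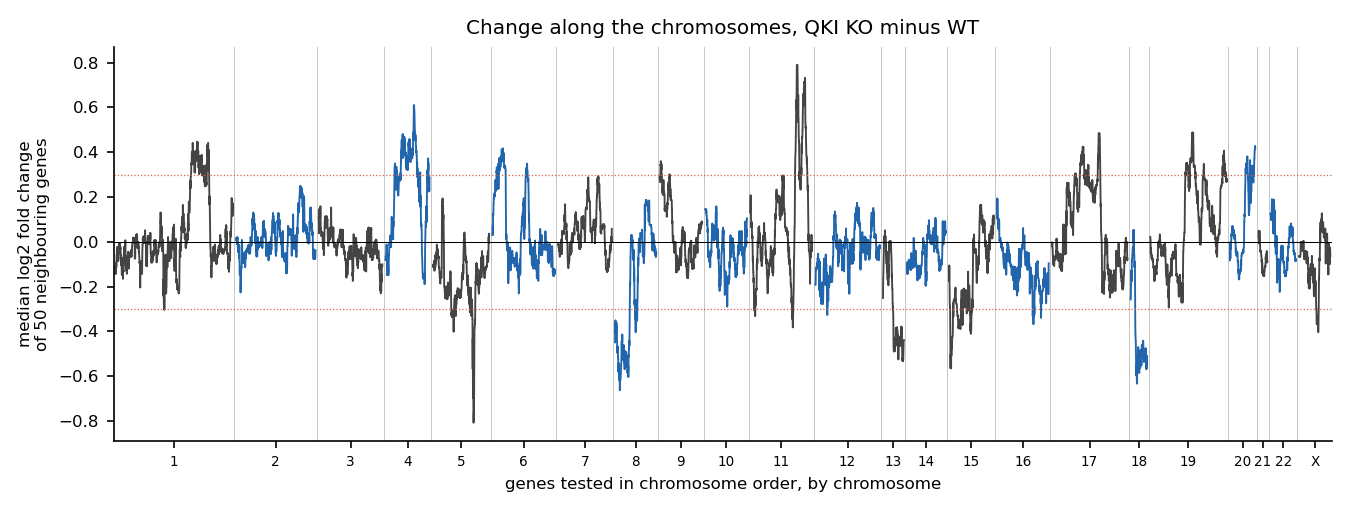
Genes tested stand in chromosome order on the x axis, and the y axis gives the median log2 fold change, QKI KO minus WT, of 50 neighbouring genes. Dotted lines mark 0.3 and −0.3, and long stretches of chromosomes 4, 8, 11, 13 and 18 lie beyond them, with the extremes at −0.81 on chromosome 5 and 0.79 on chromosome 11.

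The lowest window of all held the clustered protocadherins of chromosome 5, cell surface proteins that give neurons their identity, of which 0 were higher and 13 lower of 30 tested (median −0.84, and −0.13 after subtraction of the neighbours, which are mostly other protocadherins). *PCDHGB5* fell from 918, 943 and 957 in the WT to 253, 338 and 339.9 in the KO libraries (log2 fold change −1.60 ± 0.14 SE, adjusted p = 1.78e-07). The 50 genes nearest to the cluster but outside the list had a median of −0.26, with 13 lower and 5 higher. Genes of the γ cluster share their last exons, so their counts rest on reads from the first exon and are uncertain. All 12 HOX genes tested had log2 fold changes above 0, and 9 were higher (median 0.81). They lie mainly in the HOXB cluster, in a raised run of chromosome 17 (chr17:43585475-47873031), and after subtraction of the neighbours, which include other HOX genes, the median was 0.45. *HOXB7* rose from 1588, 1228 and 1429 to 2747, 3014 and 2768 (log2 fold change 1.01 ± 0.09 SE, adjusted p = 3.55e-07). Of 45 KRAB zinc finger genes on chromosome 19, 18 were higher and 4 lower (median 0.22). The median was 0.01 after subtraction of the neighbours, which can include other zinc finger genes, so a shift of the list itself is subtracted too. The zinc finger gene *ZNF429*, elsewhere on chromosome 19 and not in the list, rose from 46, 33.3 and 51.3 to 825, 795 and 712 (log2 fold change 4.15 ± 0.19 SE, adjusted p = 8.52e-11) beside neighbours with a median of −0.12.

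Of 21 neuronal and synaptic genes with enough reads, 2 were higher and 9 lower (median −0.47), although the summed level of the list was higher in the KO libraries through *UCHL1*. *UCHL1*, a deubiquitinase abundant in neurons, rose from 11685, 12729.8 and 10847 to 40199, 34472 and 41450.2 (log2 fold change 1.72 ± 0.07 SE, adjusted p = 4.28e-11), and *TUBB3* and the glutamate receptor *GRIA3* fell by 1.22 and 5.29. Among guidance molecules 13 were higher and 14 lower of 52. *SEMA3E* rose from 24.4, 89.9 and 61.6 to 563, 407 and 431 (log2 fold change 3.0 ± 0.32 SE, adjusted p = 1.99e-06) and *NTN4* (netrin 4) by 1.23 ± 0.07, and *UNC5C*, a netrin receptor, fell from 549, 599 and 682 to 73.4, 73.6 and 63.4 (log2 fold change −3.12 ± 0.18 SE, adjusted p = 1.48e-09) within the raised run of chromosome 4. Of 30 ion pumps and calcium channels, 3 were higher and 11 lower, and of 22 potassium and sodium channels 3 were higher and 7 lower, while the summed level of the latter list was 15085 to 16327 in the WT and 17614 to 18609 in the KO libraries. The sodium channel *SCN9A* rose from 1891, 1738 and 2081 to 5641, 6227 and 5813 (log2 fold change 1.63 ± 0.08 SE, adjusted p = 1.05e-10), and the calcium channel *CACNA1C* fell from 332, 379 and 427 to 50.3, 46.9 and 59.3 (log2 fold change −2.86 ± 0.22 SE, adjusted p = 5.63e-08). For pumps and calcium channels the 11 lower became 7 without WT 2 or KO 1.

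Of 30 sphingolipid genes, 8 were higher and 8 lower (26.7% each), near the 22.4% and 20.3% of all protein-coding genes tested. The serine palmitoyltransferase subunit *SPTLC2*, at the first step of the pathway, rose from 7253, 7131 and 7813 to 13387, 13417 and 12963 (log2 fold change 0.84 ± 0.06 SE, adjusted p = 1.13e-08), and the sphingomyelin synthases *SGMS1* and *SGMS2* rose by 1.03 ± 0.09 and 0.58 ± 0.06. Of the enzymes that add galactose to glucosylceramide, *B4GALT5* rose by 0.66 ± 0.06 and *B4GALT6* fell from 308, 259.5 and 314 to 36.2, 23.5 and 51.3 (log2 fold change −2.98 ± 0.29 SE, adjusted p = 6e-07). *GALC*, which breaks down galactosylceramide, fell from 125, 103 and 47.2 to 6.03, 3.20 and 5.03 (log2 fold change −4.23 ± 0.57 SE, adjusted p = 2.17e-05). In that list the 8 lower became 5 without WT 2, WT 3 or KO 2.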

How the data were processed

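Total RNA of HLE-B3 cells was prepared as stranded libraries (TruSeq). The authors deposited raw counts per gene, which the study's methods and the submitters' processing notes trace to STAR 2.6.1b on hg19 and HTSeq 0.11.0. The strand setting in counting is not given in the sources used here, so antisense, intronic and overlapping genes are uncertain, as are near-identical genes. Replicates were not pooled. The mouse tables were not used. Groups came from the sample labels.

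The 60880 genes were filtered with filterByExpr (minimum count 10, total 15), scaled by TMM and tested with edgeR 4.0.16 in R 4.3.3 (glmQLFit and glmQLFTest) on the 3 WT and 3 QKI KO libraries, with Benjamini-Hochberg adjustment over all 19049 genes tested. The study's own tool, DESeq2 (1.42.0), served as an alternative, beside other scalings, filters, a replicate block and each library left out. The pipeline was tested on simulated data. Depth was 69190864 to 81384471 counts per library. Intervals and floors of 3 counts cover counting error only.

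Gene lists, the comparison and the tests were chosen with earlier results of these data known, and lists are described by counts and medians without a set test. Named genes are the 12 largest changes per direction (protein-coding, groups without overlap, at least 5 CPM, reads divided by library size, in the higher group), up to 4 per direction of each list by smallest p with its defining members, up to 3 per direction of a gene type, the 5 most counted of at least 2-fold per direction, and members of runs with the largest change. Others, among them genes that were on or off and those named for a role, were chosen after their values were seen. The neighbourhood median is over the 50 genes tested nearest to a gene, with only the gene itself left out. Promoter windows were read from GRCh37 with GENCODE starts. Some items are not reported here.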

Additional observations from a re-analysis of the deposited data

How the results depend on the processing

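The counts of higher and lower genes kept to within 1.5 times of 3229 and 3112 under every alternative. They were 3274 and 3054 with RLE size factors, 2648 and 3716 on total counts alone (41.6% of calls higher, against 50.9%), 3245 and 3046 for every gene with at least 1 count, 3147 and 3081 for genes with at least 10 counts in every library, and 3260 and 3028 in DESeq2. With each library left out in turn they ranged from 2609 to 3285 and from 2325 to 2902, and those of at least 2-fold from 450 to 550 (higher) and from 734 to 934 (lower). Between 76.0% (without KO 3) and 99.1% (RLE) of the calls were shared with the reported fit, all with the same sign. Replicate numbers did not pair the libraries, since same-numbered WT and KO libraries had deviations with correlations of 0.06, 0.06 and −0.05, and not every library correlated best with its own number. The fit with a replicate block gave 3023 higher and 2878 lower genes. An alternative chosen after seeing the data, without genes in runs of neighbours, left 2153 and 2248. Of 239 single genes named in the text, *VIM*, *SF1*, *TEAD3*, *ARHGEF17* and *MAF* lost their call under some setting (*MAF* in DESeq2 alone), and *PAX6* and *COL1A2* gained one on total counts alone. After subtraction of the neighbourhood median, 4 changed sign, namely *ADAR* (−0.14), *COL4A1* (0.20), *DOCK5* (0.25) and *MBNL2* (0.16). Low-level genes and most noncoding genes rest on few reads, and depth limited which of their changes could be seen. With 3 against 3 libraries an exact permutation test of a single value cannot go below 0.1.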

Other observations

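Lipid genes outside the cholesterol pathway moved in both directions. Of 48 genes of fatty acid and phospholipid metabolism tested, 14 were higher and 11 lower (29.2% and 22.9%). These shares lie near the 22.4% and 20.3% of all protein-coding genes tested. *ELOVL2*, which lengthens polyunsaturated fatty acids, had 1661, 1497 and 1529 normalized counts in the WT and 667, 578 and 603 in the KO libraries (log2 fold change −1.34 ± 0.10 SE, adjusted p = 3.68e-08), although the 50 genes nearest to it had a median of 0.28. Fatty acid synthase (*FASN*) and the desaturase *SCD* were lower by less (−0.39 ± 0.06 and −0.41 ± 0.07). The acyltransferase *GPAM*, at the first step of glycerolipid synthesis, rose from 2419.8, 2409 and 2557 to 3687, 3573 and 3598 (log2 fold change 0.56 ± 0.07 SE, adjusted p = 6.15e-06) and the nuclear receptor *PPARG* from 487, 426 and 598 to 945, 909 and 861 (log2 fold change 0.84 ± 0.13 SE, adjusted p = 0.000103). Among these lipid genes the 11 lower became 7 without WT 1.

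Of 15 genes of the mitochondrial genome in a list without its tRNA genes, 5 were higher and 2 lower. Their median was 0.12, and −0.11 after subtraction of the median of genes of like length. The 2 lower became 4 on total counts alone and 1 in DESeq2 and without WT 2. The 16 mitochondrial tRNA genes tested had 0 higher and 5 lower (median −0.54). Across all 31 mitochondrial genes tested, 5 were higher and 7 lower (median −0.29). *MT-ND3* and *MT-CO2* rose (0.78 ± 0.12 and 0.49 ± 0.09), and *MT-ND5*, a longer gene, fell (−0.28 ± 0.06). Of 26 imprinted genes tested, 2 were higher and 4 lower. *MEST* rose from 5258, 4489 and 5409 to 12785, 13051 and 13112 (log2 fold change 1.36 ± 0.07 SE, adjusted p = 2.8e-10) and *PEG10* fell from 8607, 8465 and 9013 to 6972, 7316 and 7015 (log2 fold change −0.29 ± 0.06 SE, adjusted p = 0.000781). Among imprinted genes the 4 lower became 2 without WT 2, WT 3, KO 1 or KO 3. Of 9 myelin and oligodendrocyte genes, 3 were higher and 2 lower, and the median of 0.24 became −0.19 in DESeq2 and −0.01 after subtraction of the neighbours. *PMP22* (peripheral myelin protein) rose from 4271, 4054 and 3849 to 6629, 5939 and 6169.9 (log2 fold change 0.62 ± 0.07 SE, adjusted p = 1.79e-06), and *UGT8*, which makes galactosylceramide, rose from 170.5, 232 and 207 to 374, 403 and 463 (log2 fold change 1.02 ± 0.18 SE, adjusted p = 0.000285) beside neighbours with a median of 0.59. *CSPG4* (NG2) and *MYRF*, a transcription factor of oligodendrocytes, fell (−0.49 ± 0.06 and −1.16 ± 0.13).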
